A study of Mus musculus with 8 samples.

Results

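The expression of 10 enzymes of serine, glycine and one-carbon metabolism was examined in IOX5-treated and DMSO-treated *iMLL-AF9* cells. They are given by a list of symbols, with no threshold on a measured value, but were chosen with earlier results of these data known. Each was found through the Ensembl identifier that carries the symbol in GENCODE M21. All 10 were present among the 54838 Ensembl genes listed for every sample, and 9 of them had enough reads to be tested. IOX5 is a selective inhibitor of the HIF prolyl hydroxylases (PHDs), the oxygen-dependent enzymes that mark HIF-α for degradation, and the study asked how PHD inhibition affects gene expression in acute myeloid leukemia. RNA was sequenced from 4 samples treated with IOX5 and 4 treated with DMSO, the solvent used as vehicle control, with replicate numbers 1 to 4 in each group. All 8 samples were labelled as bone marrow cells of genotype WT that carry *iMLL-AF9*, an inducible *MLL-AF9* fusion oncogene, and the methods put all mice on the C57BL/6 background. The labels call the cells leukaemic stem cells, whereas the design text calls them preleukaemic. Neither the dose and duration of treatment nor the meaning of the replicate numbers is given for these samples, and nothing says that they came from separate mice or cultures, so that p-values measure the spread between these samples, which may be technical.

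Cells make serine from a glycolytic intermediate in 3 cytosolic steps. Serine hydroxymethyltransferases then convert serine into glycine and load the released carbon onto tetrahydrofolate, and folate enzymes pass this carbon on to purine, thymidylate and methionine synthesis. The folate steps run in parallel in the cytosol and in mitochondria, and the mitochondrial branch commonly supplies the cytosol with formate. Proliferating blood and leukemia cells depend strongly on this pathway for nucleotide synthesis.

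Reads counted on genes numbered 12343770 to 14116054 per DMSO sample and 11351507 to 12708888 per IOX5 sample. All 8 markers of myeloid progenitor cells passed the filter on low counts, including *Mpo*, *Kit*, *Hoxa9* and *Meis1*, with a summed level of 2257.9 to 4605.6 CPM (reads on a gene relative to all reads on genes, TMM-scaled) with DMSO and of 2542.1 to 5254.8 CPM with IOX5. Lymphoid markers were close to absent, with at most 0.233 CPM for the 4 B cell markers and at most 0.162 CPM for the 4 T cell markers in any sample, and *Ms4a1*, *Cd4* and *Cd8a* were at 0 in all 8 samples, which allows up to 0.213 to 0.264 CPM each (3 reads per library). The 6 erythroid markers summed to 4.74 to 23.0 CPM in DMSO samples and 8.44 to 32.4 CPM in IOX5 samples, and the 5 stromal and endothelial markers to at most 2.19 CPM. Samples with the same replicate number deviated together from their group means, with correlations of 0.636 to 0.758. Numbers 3 and 4 were not told apart by this, with 0.617 and 0.685 across them. *Cd34* was at 23.2 to 40.4 CPM in the samples numbered 1 and 2 of both groups and at 133 to 231 CPM in those numbered 3 and 4. By edgeR without a block and by DESeq2, 0 markers were called (0 at an unadjusted p under 0.05 in edgeR). With the replicate number added to edgeR as a block, 3 of the 8 progenitor markers and 1 of the 4 erythroid markers tested were called higher with IOX5. That fit called 11.2% of all genes higher. The 4 markers were *Cd34* (log2 fold change 0.65, adjusted p = 7.22e-05), *Kit* (0.40, 0.00259), *Mpo* (0.25, 0.0196) and *Hbb-bt* (0.95, 0.000675). These 4 were higher with IOX5 in all 4 pairs that share a number, and their part in the results on the enzymes was not tested. In bulk samples, fewer cells of a type and less RNA per cell cannot be told apart.

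Of the 9 enzymes tested, 2 were called lower in IOX5-treated cells by edgeR's quasi-likelihood test with a Benjamini-Hochberg adjusted p under 0.05, and none was called higher. Of all 12405 genes tested, 2.02% were called in this fit, 1.25% lower and 0.774% higher. Both were mitochondrial: *Shmt2*, which makes glycine from serine, and *Mthfd2*, the dehydrogenase of the next step. A fold change below 0 was measured for all 9, against 47.2% of all genes, and the median log2 fold change of the 9 was -0.34, against 0.02 for all genes tested. The groups did not overlap for 6 of the 9, namely *Psat1*, *Shmt1*, *Mthfd1*, *Shmt2*, *Mthfd2* and *Mthfd1l*, which were lower in every IOX5 sample than in any DMSO sample, as were 8.3% of all genes, while 5.98% of all genes were higher in every IOX5 sample. In each of the 4 pairs that share a number, 7 of the 9 enzymes were lower with IOX5, against 19.8% of all genes. Since the enzymes were chosen with earlier results of these data known, these contrasts with all genes are a description and not a test. When the replicate number was added to the edgeR fit as a block, 6 of the 9 were called lower (*Phgdh*, *Psat1*, *Shmt1*, *Mthfd1*, *Shmt2* and *Mthfd2*), and 0 higher. That fit called 20.7% of all genes, 9.43% lower and 11.2% higher. DESeq2 called the same genes except *Phgdh*, 5 in all, whereas of the 11091 genes with an adjusted p it called 8.81%, 4.9% lower and 3.9% higher. Summed over the 10 enzymes, the level was between 1749.6 and 1825.3 CPM in DMSO samples and between 1233.6 and 1517.7 CPM in IOX5 samples.

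**Figure D1:**
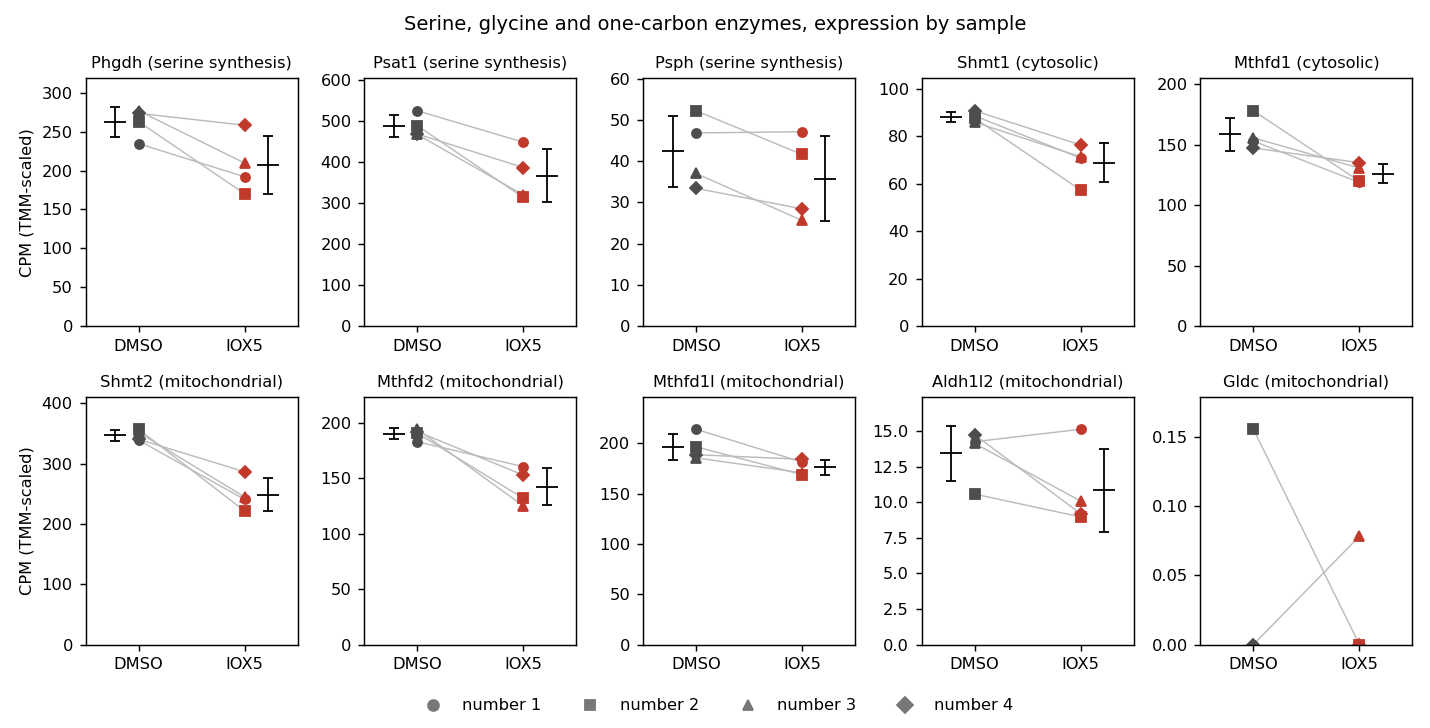
Level of each enzyme in each sample, in CPM (TMM-scaled) on axes that start at 0. Symbols mark replicate numbers 1 to 4, grey lines join samples that share a number, and bars give the mean and SD of 4 samples (not drawn for *Gldc*, which had 3 reads in all). *Shmt2* and *Mthfd2* are lower in all 4 IOX5 samples than in any DMSO sample, whereas *Phgdh*, *Psph* and *Aldh1l2* overlap between the groups.

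To show the DNA in front of the genes that the comparison of compartments turns on, the 250 bases upstream of the RefSeq start (GRCm38.p6) are printed for *Shmt2* and *Mthfd2* and for their cytosolic counterparts *Shmt1* and *Mthfd1*, 5′ to 3′ along the strand of the gene. Capitals mark each match to 1 of the 5 motifs searched on both strands: the ATF4 composite element core TGATGNAA, the HIF response element cores ACGTG and GCGTG, the E-box CACGTG (which contains ACGTG), and the NF-Y box CCAAT.
*Shmt2*, chr10:127522445-127522694, minus strand: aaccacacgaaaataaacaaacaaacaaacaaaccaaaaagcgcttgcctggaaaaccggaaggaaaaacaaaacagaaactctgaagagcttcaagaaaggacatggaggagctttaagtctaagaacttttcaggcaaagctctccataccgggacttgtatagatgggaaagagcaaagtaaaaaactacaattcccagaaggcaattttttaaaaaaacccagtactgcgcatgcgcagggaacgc
*Shmt1*, chr11:60811266-60811515, minus strand: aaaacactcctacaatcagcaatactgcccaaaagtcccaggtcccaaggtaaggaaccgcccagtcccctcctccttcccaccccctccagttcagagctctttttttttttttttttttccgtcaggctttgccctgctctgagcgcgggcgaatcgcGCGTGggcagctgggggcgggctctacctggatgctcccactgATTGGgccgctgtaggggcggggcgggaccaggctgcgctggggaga
*Mthfd2*, chr6:83317605-83317854, minus strand: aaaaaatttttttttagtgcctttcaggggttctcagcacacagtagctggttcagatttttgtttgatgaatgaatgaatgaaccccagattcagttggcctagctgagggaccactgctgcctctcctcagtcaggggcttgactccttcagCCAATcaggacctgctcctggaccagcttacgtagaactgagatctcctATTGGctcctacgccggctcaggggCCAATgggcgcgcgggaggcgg
*Mthfd1*, chr12:76254982-76255231, plus strand: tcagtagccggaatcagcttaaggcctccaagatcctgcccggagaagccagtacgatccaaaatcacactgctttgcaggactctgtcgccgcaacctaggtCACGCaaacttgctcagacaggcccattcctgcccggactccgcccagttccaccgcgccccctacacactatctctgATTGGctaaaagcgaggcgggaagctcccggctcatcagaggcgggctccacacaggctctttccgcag

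The *Shmt2* window held no match to any of the 5 motifs. *Mthfd2* held 3 matches to the NF-Y box, and *Shmt1* and *Mthfd1* held 1 NF-Y box and 1 GCGTG core each. In GENCODE M21 the *Shmt2* window lies outside any gene. The *Mthfd2* window lies within the annotated span of the gene and shares 2 bases with an exon, the *Shmt1* window shares 49 bases with an exon of a *Shmt1* transcript that starts further upstream, and the whole *Mthfd1* window is covered by an exon of the opposite-strand gene *Gm47525*. RefSeq promoters were at hand for 9 of the 10 enzymes (10 promoters, since *Psat1* has 2). Among these 9, the NF-Y box was found for 7, the GCGTG core for 6 and the ACGTG core for 2, and neither the ATF4 core nor the E-box was found. Over all 32851 RefSeq promoters, windows of the same length held the NF-Y box in 33.8%, GCGTG in 28.2%, ACGTG in 16.6%, the E-box in 6.02% and the ATF4 core in 3.45%. The enzyme with the lowest fold change thus carried none of these letters in this window, which says nothing about the factors themselves.

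Serine synthesis starts with *Phgdh* (3:98313170-98339990, minus strand), the dehydrogenase that commits 3-phosphoglycerate to the pathway. Its level was 235, 263, 277 and 274 CPM in DMSO samples 1 to 4 and 192, 170.2, 209.7 and 258 CPM in IOX5 samples 1 to 4. The groups overlapped because IOX5 sample 4 exceeded DMSO sample 1, although the IOX5 sample was the lower of each pair that shares a number. The mean was 262 ± 19.2 CPM (SD, n = 4) with DMSO and 208 ± 37.5 CPM with IOX5, a log2 fold change of -0.34 (SE 0.12). The call depended on the model, with an adjusted p of 0.171 by edgeR without a block, 0.00899 by edgeR with the replicate block and 0.107 by DESeq2. A pseudogene, *Phgdh-ps1*, is named after this gene. Reads that fit both could be set aside as not uniquely aligned, and the effect on the level was not tested.

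*Psat1* (19:15904678-15947337, minus strand), the aminotransferase of the second step, gave 525, 489, 467 and 468 CPM in the DMSO samples. In the IOX5 samples it gave 448, 313, 319.6 and 387 CPM. No IOX5 sample reached the lowest DMSO sample, and IOX5 sample 1 came closest to it. Its log2 fold change was -0.41 (SE 0.11, 95% interval -0.67 to -0.15), with an adjusted p of 0.098 by edgeR, 0.0024 by edgeR with the replicate block and 0.0163 by DESeq2. The phosphatase of the last step, *Psph* (5:129765558-129787449, minus strand), was expressed at a lower level, with 46.9, 52.3, 37.0 and 33.4 CPM in the DMSO samples and 47.2, 41.6, 25.6 and 28.4 CPM in the IOX5 samples. In both groups, *Psph* was higher in the samples numbered 1 and 2 than in those numbered 3 and 4, the opposite of the order of *Cd34*; the part of this in the result was not tested. Its log2 fold change of -0.25 had an SE of 0.22 and an edgeR adjusted p of 0.566, or 0.0524 with the replicate block. Exons of *Psph* share 452 bases with the opposite-strand gene *Cct6a*, which had 52963 reads in all against 3939 for *Psph*.

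The cytosolic folate branch is represented by *Shmt1* and *Mthfd1*. *Shmt1* (11:60788104-60811718, minus strand), the cytosolic serine hydroxymethyltransferase, was measured at 88.7, 87.7, 86.0 and 90.9 CPM in the DMSO samples and at 70.9, 57.4, 71.4 and 76.4 CPM in the IOX5 samples. The DMSO samples lay close to each other and all above the IOX5 samples, among which sample 2 was the lowest. *Mthfd1* (12:76255298-76319803, plus strand) encodes the cytosolic enzyme that combines dehydrogenase, cyclohydrolase and formyltetrahydrofolate synthetase activities. It was at 153, 178, 156 and 147 CPM with DMSO and at 119, 119.9, 131 and 135 CPM with IOX5, again without overlap. The mean of *Shmt1* with IOX5 was 78.1% of the DMSO mean (log2 fold change -0.36, SE 0.09) and that of *Mthfd1* 79.5% (log2 fold change -0.33, SE 0.08). Neither passed edgeR without a block, with adjusted p-values of 0.0681 and 0.0608, whereas both passed with the replicate block (0.00428 and 0.0085) and by DESeq2 (0.0118 and 0.00781). *Shmt1* shares 184 exonic bases with the opposite-strand gene *Smcr8*, which had 16946 reads against 7947 for *Shmt1*.

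The mitochondrial branch held both enzymes that were called. *Shmt2* (10:127517123-127522444, minus strand), the mitochondrial serine hydroxymethyltransferase, was at 339, 357, 352 and 341 CPM in the DMSO samples. It was at 241, 222, 245 and 287 CPM in the IOX5 samples, so that all 4 were below every DMSO sample and sample 4 was closest to them. Its mean fell from 347 ± 8.84 to 248 ± 27.4 CPM (SD, n = 4), a log2 fold change of -0.48 (SE 0.08, 95% interval -0.66 to -0.30). The edgeR adjusted p was 0.026, and it was 0.000808 with the replicate block and 1.65e-05 by DESeq2. Leaving out single samples moved the edgeR adjusted p to between 0.0251 and 0.124, and *Shmt2* remained called in 2 of these 8 fits, those without IOX5 sample 2 and without IOX5 sample 4.

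*Mthfd2* (6:83305691-83325908, minus strand), the mitochondrial methylenetetrahydrofolate dehydrogenase and cyclohydrolase that is typical of embryonic and transformed cells, was measured at 183, 191, 194 and 192 CPM with DMSO and at 160.3, 132, 125 and 153 CPM with IOX5. The groups did not overlap, and within the IOX5 group samples 1 and 4 were above samples 2 and 3. The mean fell from 189.9 ± 4.89 to 142 ± 16.8 CPM, a log2 fold change of -0.41 (SE 0.08, 95% interval -0.61 to -0.22). Its edgeR adjusted p of 0.0474 was close to the threshold, and it was lost with RLE factors (0.0516), with upper-quartile factors (0.0597), without a filter on low counts (0.0536) and without any single sample other than IOX5 sample 4 (0.0553 to 0.148). With the replicate block the adjusted p was 0.00231, and by DESeq2 it was 0.000641.

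**Figure D2:**
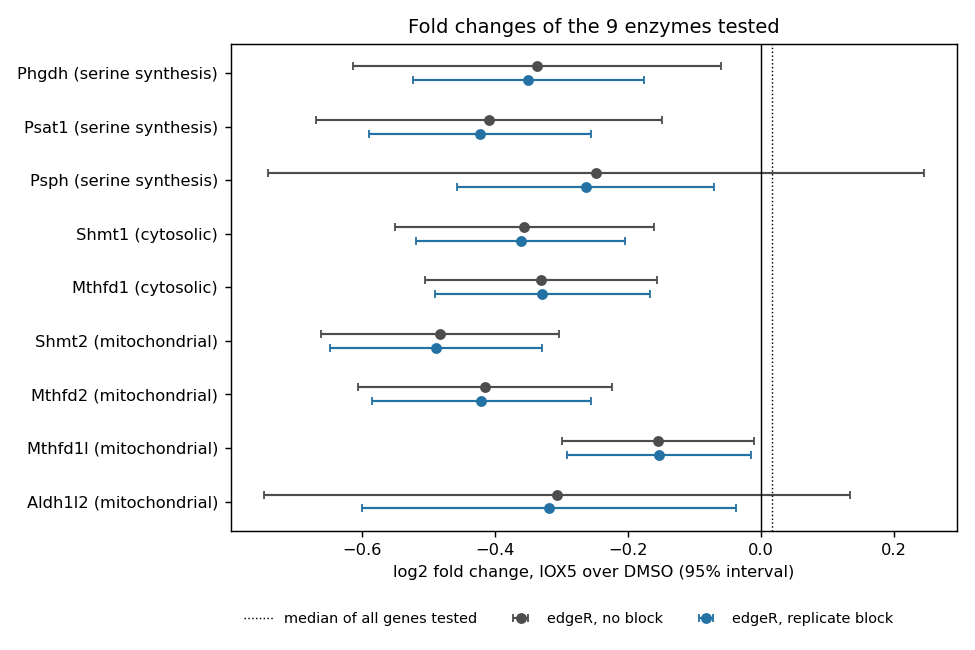
Log2 fold change of the 9 enzymes tested (IOX5 over DMSO, points) with 95% intervals (bars), from edgeR without a block (dark) and with the replicate number as a block (blue); the dotted line is the median of all 12405 genes. All 9 points lie below 0, between -0.48 for *Shmt2* and -0.15 for *Mthfd1l*, and the block narrows the interval of *Psph* most.

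*Mthfd1l* (10:3973118-4167081, plus strand), the mitochondrial formyltetrahydrofolate synthetase that releases formate, showed the smallest difference of the 9. It was at 214, 196, 185 and 189 CPM in the DMSO samples and at 181, 169, 171 and 184 CPM in the IOX5 samples. The groups did not overlap, but IOX5 sample 4 (184.0 CPM) was just below DMSO sample 3 (185.4 CPM). Its log2 fold change was -0.15 (SE 0.06, 95% interval -0.30 to -0.01), and it passed neither edgeR without a block (adjusted p = 0.219) nor edgeR with the block (0.105) nor DESeq2 (0.188). *Aldh1l2* (10:83487450-83534140, minus strand), which oxidizes mitochondrial formyltetrahydrofolate, was low, at 14.3, 10.6, 14.1 and 14.7 CPM with DMSO and 15.1, 8.97, 10.1 and 9.19 CPM with IOX5. The groups overlapped, with all 4 DMSO samples inside the range of the IOX5 group, and the adjusted p was 0.419 by edgeR and 0.0991 with the replicate block. Exons of *Aldh1l2* share 1056 bases with the opposite-strand gene *D10Wsu102e* (9043 reads against 1228).

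*Gldc* (19:30098447-30175429, minus strand) encodes the glycine decarboxylase that starts the mitochondrial glycine cleavage system. Only 3 reads were counted on it in all 8 samples, 2 of them in DMSO sample 2 and 1 in IOX5 sample 3. The other 6 samples had no read, which allows a level of up to 0.213 to 0.264 CPM (3 reads per library, counting error only), so that no fold is given and the gene was not tested. *Amt*, the aminomethyltransferase of the same system, was also under the filter, at 0.311 to 0.569 CPM with DMSO and 0.266 to 1.68 CPM with IOX5. The other subunits were expressed in every sample, *Gcsh* at 57.4 to 81.7 CPM and *Dld*, which also serves other mitochondrial dehydrogenases, at 186 to 272 CPM; these subunits were chosen for mention after their values were seen.

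Per kilobase of exon, the levels of the enzymes spanned a wide range, and the order was similar in both groups. In DMSO-treated cells, *Psat1* (114.6 ± 6.36 CPM per kb, SD, n = 4), *Shmt2* (112 ± 2.84) and *Phgdh* (105 ± 7.74) were highest, and neighbours in this order had overlapping ranges. *Mthfd2* (54.5 ± 1.40), *Mthfd1l* (44.2 ± 2.87), *Mthfd1* (35.7 ± 3.05), *Shmt1* (22.8 ± 0.52), *Psph* (9.80 ± 2.01) and *Aldh1l2* (1.79 ± 0.256) followed with no overlap between neighbours. In IOX5-treated cells, *Shmt2* (79.9 ± 8.83 CPM per kb) came after *Psat1* (86.3 ± 14.9) and *Phgdh* (83.5 ± 15.1), again with overlapping ranges. *Mthfd2* (40.9 ± 4.81) and *Mthfd1l* (39.7 ± 1.71) also overlapped there, which they did not with DMSO. In both groups, the mean of *Shmt2* was above that of its cytosolic counterpart *Shmt1*, and those of *Mthfd2* and *Mthfd1l* were above that of *Mthfd1*. *Aldh1l2* was not compared with a cytosolic counterpart, so this order is not shown for every step.

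**Figure D3:**
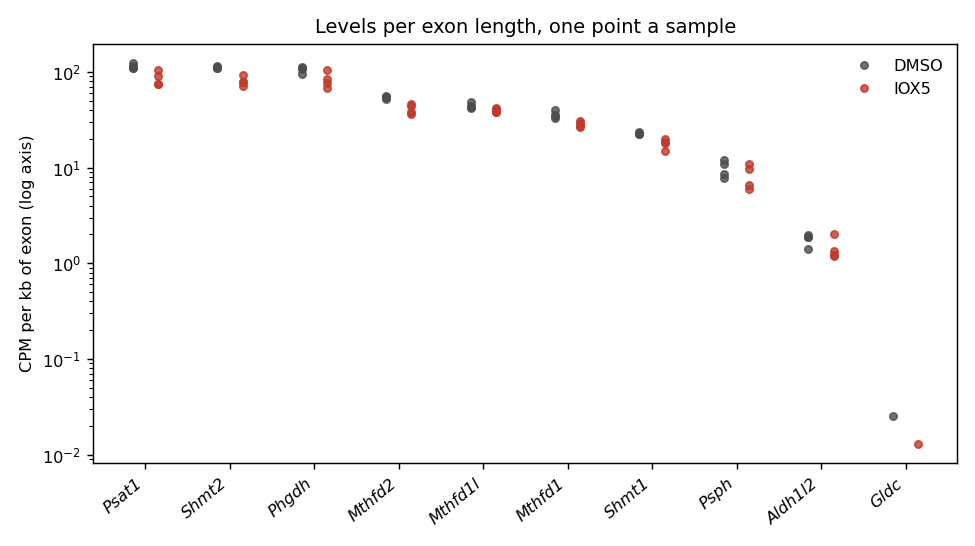
Level of each enzyme per kilobase of exon (CPM per kb, log axis), with 1 point for each sample, DMSO in grey and IOX5 in red; samples without a read are not drawn, which leaves 1 point per group for *Gldc*. *Psat1*, *Shmt2* and *Phgdh* are highest in both groups, and *Aldh1l2* is the lowest of the 9 enzymes tested.

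Whether the mitochondrial and cytosolic steps differed in their response was examined with the ratio of the counterparts within each sample, which does not depend on library scaling. The log2 ratio of *Shmt2* to *Shmt1* was 1.93, 2.03, 2.03 and 1.91 in the DMSO samples and 1.76, 1.95, 1.78 and 1.91 in the IOX5 samples. The ranges overlapped, with samples 1 and 3 lower under IOX5 than any DMSO sample. The difference of the means was -0.13 (SE 0.06), lower in 3 of 4 pairs, with an exact two-sided permutation p of 0.143 over the 70 assignments and 0.214 after Benjamini-Hochberg adjustment over the 3 ratios. For *Mthfd2* to *Mthfd1* the mean log2 ratio was 0.26 ± 0.12 with DMSO and 0.17 ± 0.20 with IOX5 (SD, n = 4), a difference of -0.09 (SE 0.12, exact permutation p = 0.486, adjusted 0.486). In 2 of the 4 pairs this ratio was lower and in 2 it was higher with IOX5.

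The ratio of *Mthfd1l* to *Mthfd1* had the opposite sign. Its log2 value was 0.48, 0.14, 0.25 and 0.36 in the DMSO samples and 0.61, 0.49, 0.38 and 0.44 in the IOX5 samples, higher with IOX5 in all 4 pairs although the groups overlapped. The difference was 0.18 (SE 0.09), with an exact permutation p of 0.114 (adjusted 0.214) and, for the 4 pairs, an exact sign-flip p of 0.125, the smallest that 4 pairs can give. None of the 3 ratios passed the permutation test between the groups, which does not use the pairs and whose smallest possible p was 0.0286. That floor is before adjustment over the 3 ratios. A single ratio at it, with the others not low, would have stayed above 0.05 after adjustment. The test therefore could not have called a difference in 1 ratio alone. The exact sign-flip test could not have passed with 4 pairs. No other paired test of the ratios was run, so a difference within pairs is neither shown nor excluded. At an unadjusted p under 0.05 in edgeR, 3 of the 4 mitochondrial enzymes tested and 4 of the 5 cytosolic ones were lower, against 11.2% of all genes lower and 8.98% higher. The 2 calls among the former and 0 among the latter therefore do not show a difference between the compartments, and the median log2 fold changes were -0.36 and -0.34.

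**Figure D4:**
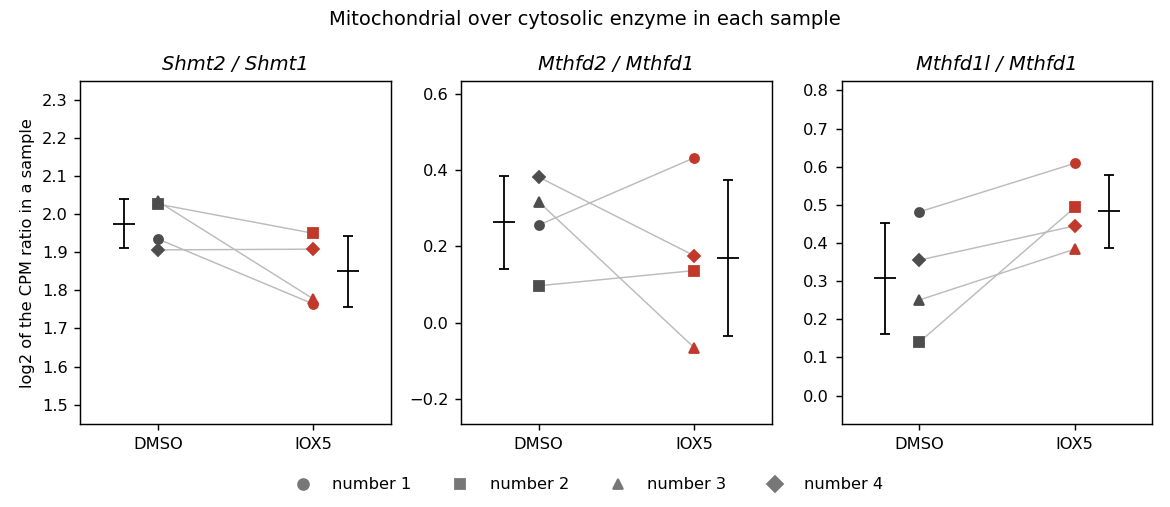
Log2 of the CPM ratio of the mitochondrial to the cytosolic enzyme in each sample, with lines joining samples that share a number and bars for the mean and SD of 4 samples; the vertical axes do not start at 0. *Mthfd1l* over *Mthfd1* is higher with IOX5 in all 4 pairs, *Shmt2* over *Shmt1* is lower in 3, and the groups overlap in all 3 panels.

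Genes next to the 10 enzymes were taken from 5 lists with 67 members, of which 56 were tested. Of these, 4 were called lower by edgeR and 0 higher, against 1.25% and 0.774% of all genes; 39 had a fold change below 0, and the median log2 fold change was -0.16. With the replicate block, 19 were called lower and 4 higher, against 9.43% and 11.2% of all genes. DESeq2 called 13 lower and 2 higher, against 4.9% and 3.9% of the genes with an adjusted p. Among 12 other folate enzymes and transporters tested, 7 were below 0, with a median of -0.04 on the log2 scale. By edgeR without a block 1 was called lower and 0 higher, against 1.25% and 0.774% of all genes. With the block 2 were called lower and 1 higher, against 9.43% and 11.2%. The gene called higher was *Ggh*, chosen for mention after its values were seen. Its log2 fold change was 0.29, with edgeR adjusted p-values of 0.131 without and 0.0301 with the block. *Slc19a1*, the reduced folate carrier, was lower in all 4 pairs, with a log2 fold change of -0.33 and an edgeR adjusted p of 0.0696, or 0.00831 with the block.

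Of the 11 purine synthesis enzymes, which consume formyl groups in the steps of *Gart* and *Atic*, 9 had a fold change below 0, with a median of -0.22 on the log2 scale. None was called by edgeR without a block, where 6 lower and 1 higher had an unadjusted p under 0.05 (11.2% and 8.98% of all genes did). With the block 6 were called lower and 1 higher, against 9.43% and 11.2% of all genes. The smallest adjusted p-values belonged to *Pfas* (log2 fold change -0.36, edgeR adjusted p = 0.0532, 0.00277 with the block) and *Adsl* (-0.33, 0.0543, 0.00621 with the block), and for both the groups did not overlap. In the methionine cycle 6 genes were tested, and 5 were below 0 with a median of -0.23. By edgeR without a block 0 were called (3 at an unadjusted p under 0.05, all lower, against 11.2% of all genes). With the block 3 were called, all lower, against 9.43% of all genes. *Mtap*, which salvages methylthioadenosine, and *Ahcy*, which hydrolyses S-adenosylhomocysteine, had log2 fold changes of -0.36 and -0.29 and edgeR adjusted p-values of 0.0873 and 0.098 (0.00791 and 0.0102 with the block).

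Glycine cleavage and the uses of serine and glycine gave no common direction, with 6 of 10 genes tested below 0, a median of -0.11 and 0 calls by edgeR without a block, where 2 lower and 2 higher had an unadjusted p under 0.05 (11.2% and 8.98% of all genes). With the block 3 were called lower and 2 higher, against 9.43% and 11.2% of all genes. DESeq2 called 0 lower and 2 higher, against 4.9% and 3.9%. The 3 called lower with the block were chosen for mention after their values were seen. They were *Cth*, which makes cysteine (log2 fold change -0.74, edgeR adjusted p = 0.00475 with the block), the mitochondrial serine carrier *Sfxn1* (-0.23, 0.0298) and *Dld* (-0.23, 0.0457). The mitochondrial serine carrier relative *Sfxn3* was at 20.9 to 27.5 CPM in the DMSO samples and at 32.9 to 37.8 CPM in the IOX5 samples, without overlap. Its log2 fold change of 0.47 had an edgeR adjusted p of 0.0584, or 0.00502 with the block. *Alas1*, which uses glycine for heme synthesis, was at 196 to 233 CPM with DMSO and 235 to 289 CPM with IOX5, with a log2 fold change of 0.29 and edgeR adjusted p-values of 0.104 without and 0.0161 with the block.

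The amino-acid response list holds genes of the ATF4 pathway, which is known to drive serine synthesis and mitochondrial folate genes when amino acids are short. Of its 17 genes, 3 were called lower by edgeR and 0 higher, against 1.25% and 0.774% of all genes. With the block 5 were called lower and 0 higher, against 9.43% and 11.2%. The median log2 fold change of the list was -0.05, with 12 genes below 0 and 5 above it. *Chac1*, a glutathione-degrading enzyme, was at 14.3, 19.8, 18.9 and 15.8 CPM with DMSO and at 7.37, 8.08, 6.41 and 6.42 CPM with IOX5 (log2 fold change -1.28, SE 0.15, adjusted p = 0.0157). The large neutral amino acid transporter *Slc7a5* fell from a mean of 494 to 309 CPM (log2 fold change -0.68, adjusted p = 0.0254) and the pseudokinase *Trib3* from 47.1 to 32.3 CPM (-0.55, adjusted p = 0.026), also by edgeR and without overlap of the groups. *Atf4* itself was at 496, 538, 538 and 541 CPM in the DMSO samples and at 420, 428, 427 and 506 CPM in the IOX5 samples. The groups overlapped through IOX5 sample 4, and the log2 fold change was -0.25 (SE 0.07), with edgeR adjusted p-values of 0.111 without and 0.0184 with the replicate block.

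**Figure D5:**
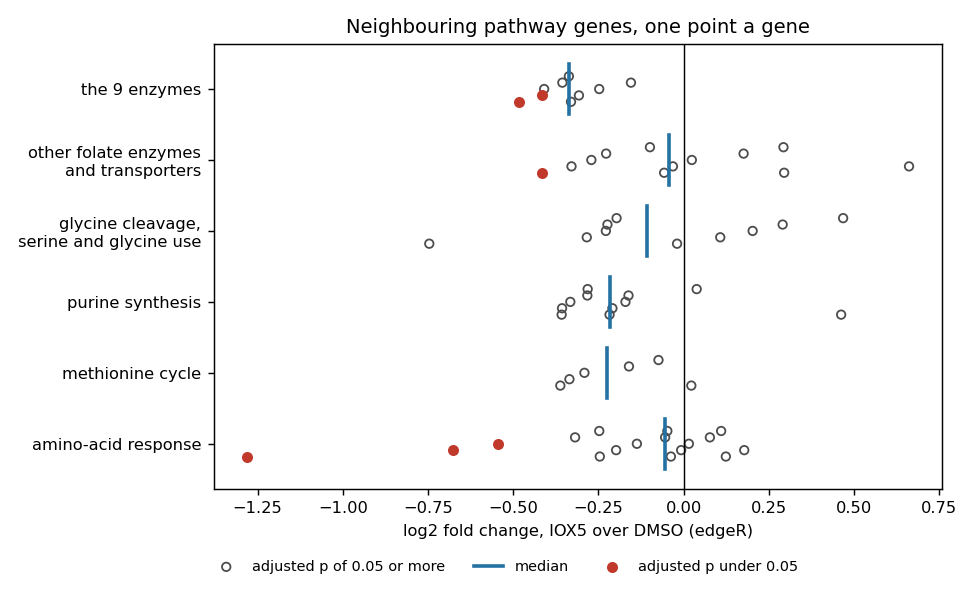
Log2 fold change (IOX5 over DMSO, edgeR) of each gene tested among the 9 enzymes and the 5 neighbouring lists, with filled red points for an adjusted p under 0.05 and blue lines for the median of each list. The medians are -0.34 for the 9 enzymes and between -0.23 and -0.04 for the other lists, and the leftmost red point is *Chac1* at -1.28.

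The genes whose pattern over the 8 samples was most like the mean standardized level of the 9 enzymes were *Gabpb1* (Pearson r = 0.993), *Rbmx* (0.987), *Polr3f* (0.979), *Asns* (0.978) and *Tubb4b* (0.978), out of 8916 genes with a mean of at least 10 CPM. These correlations are a description over 8 samples that share libraries and the split between treatments. *Asns*, the asparagine synthetase of the amino-acid response list, was at 201 to 215 CPM in the DMSO samples and at 153 to 185 CPM in the IOX5 samples, with a log2 fold change of -0.32 and edgeR adjusted p-values of 0.0688 without and 0.00877 with the block. *Gabpb1* was at 77.1 to 80.0 CPM with DMSO and at 54.1 to 66.6 CPM with IOX5 (log2 fold change -0.35, edgeR adjusted p = 0.0485).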

How the data were processed

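RNA from 4 DMSO-treated and 4 IOX5-treated samples of *iMLL-AF9* cells was examined, with groups taken from the sample labels. Per the methods and labels, the authors made directional libraries from poly(A) RNA, trimmed single-end reads with cutadapt 1.18, mapped them to GRCm38 with HISAT2 2.2.1 and deposited counts per Ensembl gene from htseq-count (HTSeq 2.0.1), without normalization. The annotation release and the strand option of the counting are not given in the sources used here. The antisense pair *Xist* and *Tsix* had 105071 and 21 reads. This does not settle the strand option, since *Tsix* may be hardly expressed in these cells. Identifiers were matched to GENCODE M21, with 54723 of 54838 found. The 5 summary lines at the end of each file (20.6% to 21.5% of reads in DMSO samples and 20.8% to 22.6% in IOX5 samples) were left out.

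Counts were analysed in R 4.3.3 with edgeR 4.0.16 (filterByExpr, 12405 genes, TMM factors of 0.988 to 1.03, quasi-likelihood test, Benjamini-Hochberg adjustment over all genes, threshold 0.05). CPM values are TMM-scaled, and log2 CPM used a prior count of 2. Levels between genes were compared per kilobase of M21 exon. Ratios were tested by exact permutation. Samples sharing a replicate number deviated together from their group means (correlations of 0.758, 0.744, 0.732 and 0.636 for numbers 1 to 4). Numbers 3 and 4 were not told apart by this, with 0.617 and 0.685 across them, whereas the other pairs of different numbers gave at most 0.212. The fit with the number as a block is therefore given beside results whose call it changes. DESeq2 1.42.0, RLE and upper-quartile factors, other filters and fits without single samples were the alternatives. The fits by edgeR, by edgeR with the block and by DESeq2 were first run on simulated counts that held no replicate effect. Of 100 genes simulated at an absolute log2 fold change of 0.5, they recovered 18, 9 and 37. False calls among unchanged genes numbered 6, 2 and 30. The other steps were not simulated. Blocked fits without 1 replicate number were an alternative chosen after seeing the data.

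The 10 enzymes were given by name, and the members and lists were chosen with earlier results of these data known. Named beyond them were every list gene with an adjusted p under 0.05, the 2 genes of each list with the smallest adjusted p, *Atf4*, and the 5 genes with a mean of at least 10 CPM most correlated with the enzymes. Some items under these rules are not reported here.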

Additional observations from a re-analysis of the deposited data

Results flagged for a closer look

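Among 24 groups of 4 values examined (the CPM of the 9 enzymes tested and the 3 ratios, in each treatment), 1 held a sample far from the others. *Aldh1l2* was at 10.6 CPM in DMSO sample 2 and at 14.1 to 14.7 CPM in the other 3 DMSO samples, a gap of 0.854 of the range of the group. Chance gives such a gap in about 1 in 20 groups.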

How the results depend on the processing

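All 162 fold changes of the 9 enzymes under 18 alternatives were below 0. Of these, 120 stayed on their side of the threshold, 26 passed it only in the alternative and 16 only in the edgeR fit reported. The count of 2 enzymes called lower became 1 with RLE or upper-quartile factors or no filter on low counts, 6 with the replicate block and 5 with DESeq2, and ranged from 0 to 4 without single samples. It was 0 when any 1 of the DMSO samples, IOX5 sample 1 or IOX5 sample 3 was left out (5 or 6 enzymes then had an unadjusted p under 0.05), 1 without IOX5 sample 2 and 4 without IOX5 sample 4. Blocked fits without replicate number 1, 2, 3 or 4 called 8, 6, 5 and 6. The 251 genes called in all (61.8% lower) became 152 without a filter, 2564 with the block (45.6% lower), 977 with DESeq2 (55.7%) and 0 to 463 without single samples (0 in 3 of these fits, with 1846 to 2111 genes at an unadjusted p under 0.05), and 1644, 2135, 1045 and 2413 in the blocked fits without 1 number. With upper-quartile factors 51.7% of the calls were lower, and without a filter 48.0%. The 4 neighbouring genes called became 23 with the block, 15 with DESeq2, 0 to 12 without single samples, and 17, 19, 12 and 29 in the blocked fits without 1 number. The differences of the 3 ratios kept their sign throughout, at -0.16 to -0.10, -0.18 to -0.01 and 0.12 to 0.23 without single samples. The causes were not tested. With 3 reads in all, *Gldc* was not tested.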
